A study of Mus musculus with 6 samples.

Results

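The RNA of 10 heat shock chaperone genes is described here, out of 32227 genes in the count tables: Hspa1a, Hspa1b, Dnajb1, Hsph1, Hspe1, Hspd1, Hsp90aa1, Hsp90ab1, Hspa8 and Hspb1. The family was chosen by the large difference in Hspa1a and Hspa1b between the 2 spleen libraries. Values of that spleen contrast, for these genes and for every other measure of it, are therefore given as a description, and nothing is read from them.

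Chaperones bind unfolded or partly folded proteins, keep them from clumping and help them to fold or to be destroyed. The Hsp70 proteins do this with J-domain partners and nucleotide exchange factors, the Hsp90 proteins act later on client proteins such as kinases of T cell receptor signaling, and a chaperonin with its lid folds proteins inside mitochondria. Some of the genes are active in most cells, while others are switched on by heat shock factor 1 when unfolded proteins build up.

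The study asked how PD-1, an inhibitory receptor encoded by Pdcd1, shapes cytotoxic CD8 T cells of the thymus, and sequenced RNA of single cells with the PIPseq chemistry, which counts molecules by unique molecular identifiers (UMIs). All mice were adult C57BL/6 mice carrying floxed Pdcd1 alleles (Pdcd1fl/fl); in the Pdcd1 cKO mice, Cre driven by the E8I enhancer of Cd8a acts in CD8 T cells. Thymus and spleen were taken at baseline from 1 mouse per genotype and enriched for CD8 T cells on columns. Tumors grew from injected B16-OVA cells, a mouse melanoma line carrying ovalbumin, and were pooled from 3 mice per genotype on day 12, digested with enzymes, cleared of dead cells and enriched for CD8 T cells with beads. The 6 libraries, 1 per genotype and tissue, have no replicates. No test within a tissue was possible, none across tissues was run, and all 95% intervals cover counting error only.

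The thymus libraries held 1067 barcodes (fl/fl) and 2674 barcodes (cKO), the spleen libraries 6929 and 4963, and the tumor libraries 457 and 561. The cell filter (500 or more genes, 1000 or more UMIs, a mitochondrial share of 20% or less) kept 1067 and 2635 cells for thymus, 1478 and 4928 for spleen and 456 and 561 for tumors. In the spleen fl/fl library the filter kept 21.3% of the barcodes. Median UMIs per filtered cell were 4361 and 5417 for thymus, 1320.5 and 1615 for spleen and 13809.5 and 9510 for tumors. Filtered totals ran from 2220981 UMIs in the spleen fl/fl library to 19143524 UMIs in the thymus cKO library. The spleen libraries shared 2 barcodes, 0 of them among filtered cells, and the other 14 pairs of libraries shared 0.

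Pdcd1 RNA ran against the labels in thymus and spleen, which bears on every direction given below. Its level, in CPM (UMIs scaled by the library total over filtered cells), was 1.88 in the thymus fl/fl and 6.84 in the thymus cKO library, and 0.450 (1 UMI) in the spleen fl/fl and 11.7 in the spleen cKO library. In the tumors it was 76.4 in the fl/fl and 102 in the cKO library over all cells. Among tumor cells led by T cell markers (T-led: at least 3 UMIs of that list and 2 times every other lineage list) the order was the reverse, with 183 and 151 CPM. Among tumor cells with a CD8 UMI it was at 105 and 113 CPM (log2 ratio 0.10, -0.05 to 0.25). That set was not limited to T-led cells. Hspb1 was at 31.5 (fl/fl) and 8.34 CPM (cKO) in it, against 1.30 and 1.90 CPM in T-led cells. The deleted exons are not named in the sources used, and a count summed over a gene hides the exon it came from, so these levels do not check the genotype. Each direction below rests on the labels as deposited, with "cKO" and "fl/fl" standing for libraries so labelled. Each tissue has a single pair of libraries, so no result can be given without them.

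Hspa1a and Hspa1b encode the stress-inducible cytosolic Hsp70. Both lie on the minus strand of chromosome 17 (GRCm39), Hspa1a at chr17:35188166-35191132 and Hspa1b at chr17:35175412-35178214, with starts 12918 bases apart. They are near-identical copies, so the assignment of reads between them is uncertain and their sum is given beside each. Exons of Hspa1a also overlap the gene Gm20481 on the other strand, and the strand setting of the counts is not stated.

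The level of Hspa1a was 5.95 CPM (95% Poisson interval 4.21 to 8.16) in the thymus fl/fl library, 9.93 (8.56 to 11.4) in the thymus cKO library, 20.7 (15.2 to 27.6) in the spleen fl/fl library, 598 (583 to 615) in the spleen cKO library, 5.33 (3.96 to 7.03) in the tumor fl/fl library and 16.2 (13.5 to 19.2) in the tumor cKO library. In the same order, Hspa1b was at 6.10, 10.5, 31.5, 592, 13.6 and 10.2 CPM. The spleen cKO library was the highest for both genes, followed by the spleen fl/fl library. Next to the spleen fl/fl library, the interval of the tumor cKO library overlapped for Hspa1a, and none overlapped for Hspa1b. The lowest 2 libraries for Hspa1a (thymus fl/fl, tumor fl/fl) overlapped, as did the neighbours among the lowest 4 for Hspa1b.

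Summed, both copies were at 12.1, 20.4, 52.2, 1190, 19.0 and 26.4 CPM in that order of libraries. The log2 ratio of the sum, cKO over fl/fl, was 4.51 in the spleen (4.25 to 4.79), which is 22.8-fold and is the contrast that chose the genes. In the thymus, which the choice did not use, it was 0.76 (0.41 to 1.13), or 1.69-fold. In the tumors it was 0.48 (0.18 to 0.77), a value that rests on 1 cell, as described with the tumor cells. Hspa1a made up 50.3% of the sum in the spleen cKO library, 49.4% and 48.6% in the thymus fl/fl and cKO libraries, 39.7% in the spleen fl/fl library, and 28.1% and 61.2% in the tumor fl/fl and cKO libraries.

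**Figure D1:**
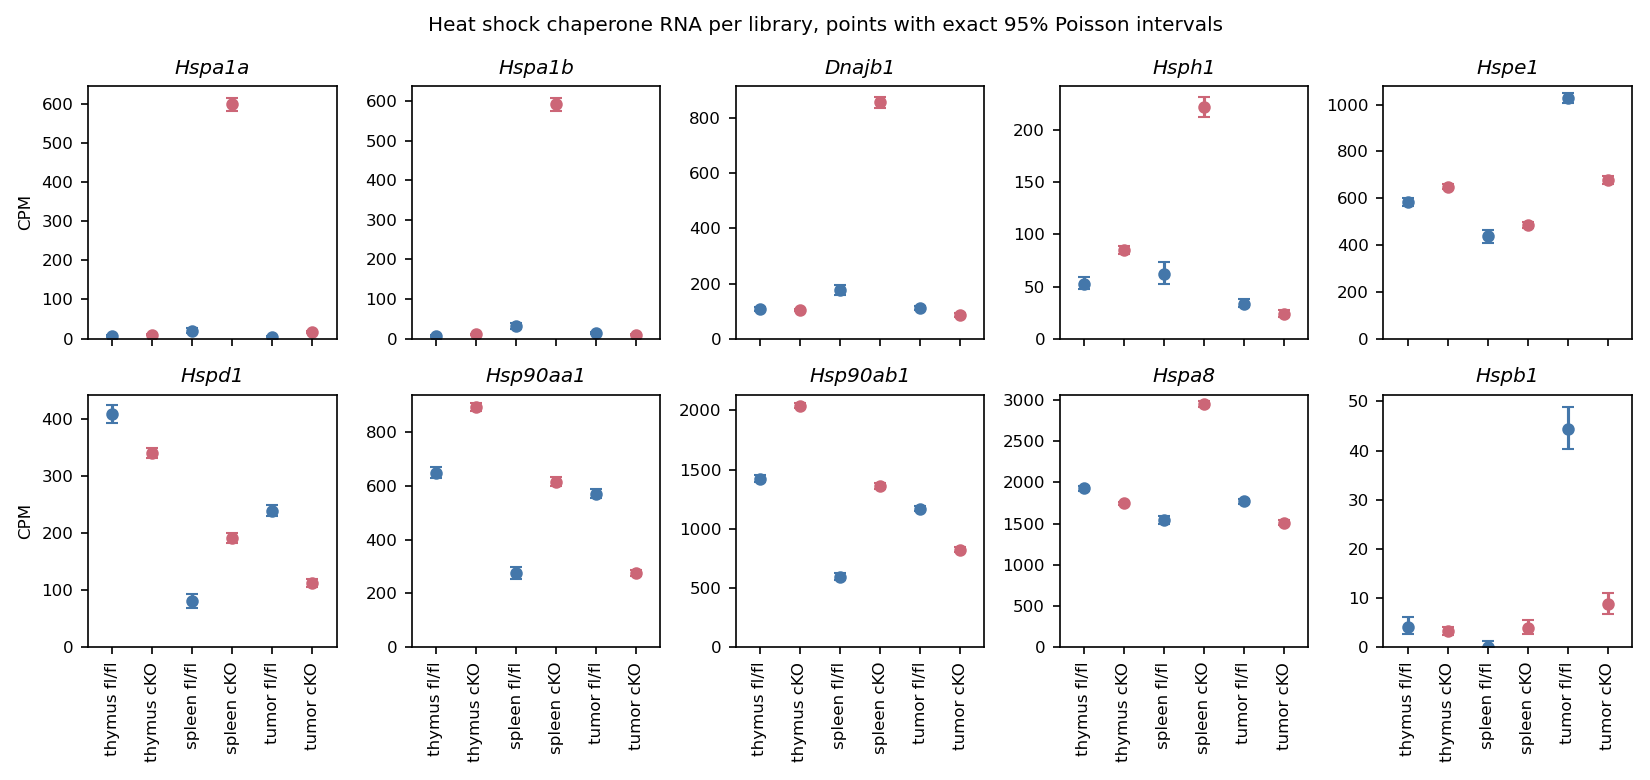
Level of each chaperone gene (CPM, linear axis from 0, each panel on its own scale) in the 6 libraries, fl/fl in blue and cKO in red, with exact 95% Poisson intervals and, for the single level of 0, a bar up to the limit of 3 counts. Hspa1a, Hspa1b, Dnajb1, Hsph1 and Hspa8 were highest in the spleen cKO library, Hspd1 in the thymus fl/fl library, Hsp90aa1 and Hsp90ab1 in the thymus cKO library, and Hspe1 and Hspb1 in the tumor fl/fl library.

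The share of cells in which this RNA was counted was taken from cells thinned at random to 1000 UMIs each, so that depth does not set the share. None was left out, since every filtered cell had at least 1000 UMIs. An Hspa1a or Hspa1b UMI was found in 52.7% of spleen cKO cells (2598 of 4928, Clopper-Pearson interval 51.3 to 54.1%) and in 4.80% of spleen fl/fl cells (3.77 to 6.02%). In the thymus the shares were 1.22% (fl/fl) and 2.13% (cKO), and in the tumors 0.877% and 1.43%, within each other's intervals. Without thinning they were 4.50% and 8.12% for thymus, 6.50% and 64.1% for spleen and 15.6% and 6.42% for tumors, where the order turned. No cell type in these libraries is known to lack the genes, so they have no background share of their own.

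RNA from other cells can be counted with a cell, and Igkc, named after its values were seen, gives a measure of this. It encodes the kappa light chain of antibodies, an RNA of B cells. In spleen cKO cells not led by B cell markers, an Igkc UMI was found in 38.0% after thinning (36.7 to 39.4%), at 484 CPM, and a UMI of the pair in 52.7% of the same cells, at 1193 CPM. In the spleen fl/fl library the shares were 6.64% for Igkc and 4.81% for the pair. A UMI in a cell therefore does not show that the cell itself carried the RNA, for the pair or for any gene below. In these spleen cKO cells an even spread would give 40.9% for Igkc and 70.7% for the pair. The variance of the thinned counts was 1.38 times their mean for Igkc and 2.87 times for the pair. Of the 4895 cells, 10 had 5 or more UMIs of Igkc and 288 had 5 or more of the pair. The levels of Igkc and the pair differ, so these counts are not compared. How much of the pair came from other cells was not tested.

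UMIs of the pair in the spleen cKO library were found with many cells, but unevenly. After thinning, 2330 cells had 0 UMIs of the pair, 1230 had 1, 1080 had 2 to 4 and 288 had 5 or more. The same UMIs spread evenly over cells would have reached 70.6% of them, against the 52.7% observed, and the variance of the counts was 2.86 times their mean. The 1% of unthinned cells richest in the pair held 9.44% of its UMIs, and the highest single cell held 60 of 10620. The richest 1% held 30.2% in the spleen fl/fl library, 46.8% and 39.6% in the thymus fl/fl and cKO libraries, and 43.3% and 82.8% in the tumor fl/fl and cKO libraries. Such a share is raised where UMIs are few (77 to 391 in these libraries), so it is not compared with the 9.44%. Hspa1b was seen in 48.6% of spleen cKO cells with an Hspa1a UMI and in 27.8% of those without, with 826 thinned cells having both, 875 Hspa1a alone and 897 Hspa1b alone.

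**Figure D2:**
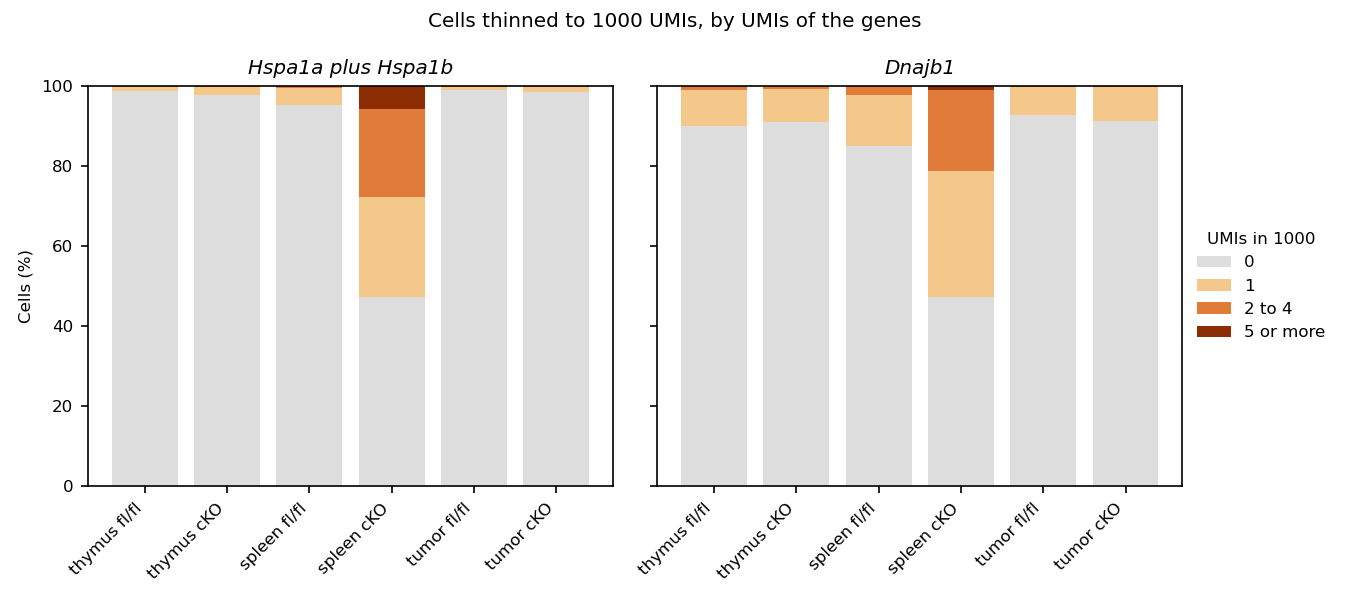
Percent of filtered cells, each thinned to 1000 UMIs, with 0, 1, 2 to 4 and 5 or more UMIs of Hspa1a plus Hspa1b (left) and of Dnajb1 (right) in each library. In the spleen cKO library 52.7% of cells had a UMI of the pair and 5.84% had 5 or more; a UMI does not show that the cell itself carried the RNA.

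Within the spleen cKO library the pair was present at every depth and with or without CD8 RNA. In 4 bins of cells from the shallowest to the deepest it was 1385, 1186, 1092 and 1177 CPM, and it was 1201 CPM in cells with a Cd8a or Cd8b1 UMI and 1141 CPM in cells without. Among 4 bins by mitochondrial share, the top bin stood highest at 1579 CPM, against 1018 to 1115 CPM in the others. Cells with a UMI of Ccl5, a chemokine of memory and effector CD8 T cells, held 1201 CPM, and the 112 cells without one held 578 CPM. The 33 cells led by B cell markers held 785 CPM, and 3 cells led by granulocyte markers held 173 CPM. In the 4 depth bins of the spleen fl/fl library, levels ran from 38.3 to 70.7 CPM. Its cells with and without a Ccl5 UMI held 52.6 and 49.9 CPM (log2 ratio 0.07, -0.74 to 0.99).

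Dnajb1 encodes a J-domain partner that hands unfolded proteins to Hsp70 and starts its ATPase. It was at 107 CPM in the thymus fl/fl library, 104 in the thymus cKO library, 177 in the spleen fl/fl library, 858 in the spleen cKO library, 112 in the tumor fl/fl library and 86.2 in the tumor cKO library. Both spleen libraries stood above the other 4, of which the tumor fl/fl and both thymus libraries overlapped as neighbours. The log2 ratio was 2.28 (2.13 to 2.43) in the spleen. It was -0.04 (-0.16 to 0.09) in the thymus, a difference not detectable at this depth and of changing sign with the scaling. In the tumors it was -0.38 (-0.52 to -0.24) over all cells and 0.07 (-0.16 to 0.29) over T-led cells. A Dnajb1 UMI was found in 52.7% of thinned spleen cKO cells, where even spread would give 58.2%, and in 14.9% of spleen fl/fl cells.

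Hsph1 encodes the Hsp110 protein that exchanges nucleotide on Hsp70. Its level was 52.9 and 85.0 CPM for thymus (fl/fl, then cKO), 62.1 and 222 for spleen and 33.7 and 24.1 for tumors. The spleen cKO library was highest and the tumor libraries lowest, and only the spleen fl/fl and thymus fl/fl libraries overlapped as neighbours. The log2 ratio was 0.68 (0.51 to 0.86) in the thymus, 1.84 in the spleen and -0.48 (-0.75 to -0.22) in the tumors, where it turned to 0.67 (0.21 to 1.15) over T-led cells. Exons of Gm20005 and Gm73411 overlap it on the other strand.

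Hspa8 encodes the Hsp70 that is present in cells without stress. It was at 1929 and 1746 CPM for thymus, 1545 and 2955 for spleen and 1771 and 1514 for tumors (fl/fl, then cKO). The spleen cKO library was highest and the thymus fl/fl library next, while the tumor fl/fl library overlapped the thymus cKO library, and the spleen fl/fl library the tumor cKO library. After thinning, 92.8% of spleen cKO cells and 76.1% of spleen fl/fl cells had an Hspa8 UMI. The log2 ratios were -0.14 (-0.17 to -0.11) in the thymus, which turned to 0.04 with another scaling, 0.94 in the spleen and -0.23 in the tumors. The tumor ratio was -0.09 (-0.14 to -0.04) over T-led cells and -0.004 (-0.04 to 0.03) when scaled by the median of ratios. Snord14c, Snord14d and Snord14e overlap its annotated exons on the same strand, and Gm57042 on the other.

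Hsp90aa1 and Hsp90ab1 encode the inducible and the steady cytosolic Hsp90. Hsp90aa1 was at 649 and 893 CPM for thymus, 276 and 616 for spleen and 571 and 275 for tumors. Hsp90ab1 was at 1423 and 2037 CPM for thymus, 597 and 1361 for spleen and 1169 and 822 for tumors. Both were highest in the thymus cKO library and lower in the spleen fl/fl than in the spleen cKO library. For Hsp90aa1 the thymus fl/fl and spleen cKO libraries overlapped, as did the spleen fl/fl and tumor cKO libraries; for Hsp90ab1 no neighbours did. The log2 ratios of Hsp90aa1 were 0.46 (0.41 to 0.51), 1.16 and -1.05 (-1.13 to -0.98) in thymus, spleen and tumors, the last at -0.18 (-0.34 to -0.03) over T-led cells. Those of Hsp90ab1 were 0.52 (0.48 to 0.55), 1.19 and -0.51 (-0.55 to -0.46). Exons of other genes overlap both on the other strand (Gm53768; Gm56882 and Slc35b2).

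Hspd1 and Hspe1 encode the mitochondrial chaperonin Hsp60 and its lid, Hsp10, and their exons overlap on opposite strands of chromosome 1. Hspd1 was at 408 and 340 CPM for thymus, 80.6 and 191 for spleen and 239 and 112 for tumors, with no overlap between neighbours. Hspe1 was at 584 and 650 CPM for thymus, 437 and 485 for spleen and 1027 and 677 for tumors, where only the tumor cKO and thymus cKO libraries overlapped. So the thymus was highest for the chaperonin and the tumor fl/fl library for its lid. The log2 ratios of Hspd1 were -0.26 (-0.33 to -0.20), 1.24 and -1.09 (-1.21 to -0.98), the last at -0.31 over T-led cells, and those of Hspe1 were 0.16 (0.10 to 0.21), 0.15 and -0.60 (-0.65 to -0.55). The spleen ratio of Hspe1 turned to -0.02 when scaled by the median of ratios, and its tumor ratio was -0.25 (-0.33 to -0.17) over T-led cells.

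Hspb1 encodes the small heat shock protein Hsp27, which holds unfolded proteins without using ATP. It was rare outside the tumors, with 4.23 and 3.29 CPM for thymus, 0 and 3.92 for spleen and 44.5 and 8.71 for tumors. The tumor fl/fl library was highest and the tumor cKO library next, and the thymus libraries and the spleen cKO library overlapped. In the spleen fl/fl library 0 UMIs were counted, which allows up to 1.35 CPM, and 0 of 1478 cells had a UMI, which by the same limit of 3 counts allows a share of cells with a UMI of up to 0.203% and does not limit the share of cells that express the gene. The level of the spleen cKO library (35 UMIs) was 2.90 times that limit, and the exact conditional interval of 35 against 0 UMIs starts at 2.24-fold higher. The tumor log2 ratio was -2.35 (-2.74 to -1.98), and that of the thymus, -0.36 (-1.03 to 0.35), was not detectable at this depth.

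Counted by a fixed size, at least 2-fold apart among genes with at least 100 UMIs in a pair of libraries, 0 of the 9 chaperone genes counted in the thymus were past it; of all 10380 genes counted there, 3.63% were past it higher in the cKO library and 4.06% lower. The median log2 ratio of the 9 was 0.46, and that of all genes -0.07. In T-led cells of the thymus it was again 0 of 9, beside 3.75% higher and 4.05% lower of 10344 genes. In the spleen 7 of 9 were past it higher, 0 lower, and 2 fell short (Hspe1, Hspa8), beside 5.07% higher and 0.676% lower of 7843 genes. The median was 1.24 there, against 0.17 for all genes. Hspb1 had too few UMIs to be counted in thymus or spleen. In the tumors 1 of 10 was past it higher (Hspa1a) and 3 lower (Hspd1, Hsp90aa1, Hspb1), beside 3.94% and 7.69% of 9035 genes. The median was -0.50 for the 10 and -0.22 for all genes, in libraries where cells led by melanoma markers made up 31.1% (fl/fl) and 10.3% (cKO), and in T-led cells 0 of 7 genes were past it, as given with the tumor cells.

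**Figure D3:**
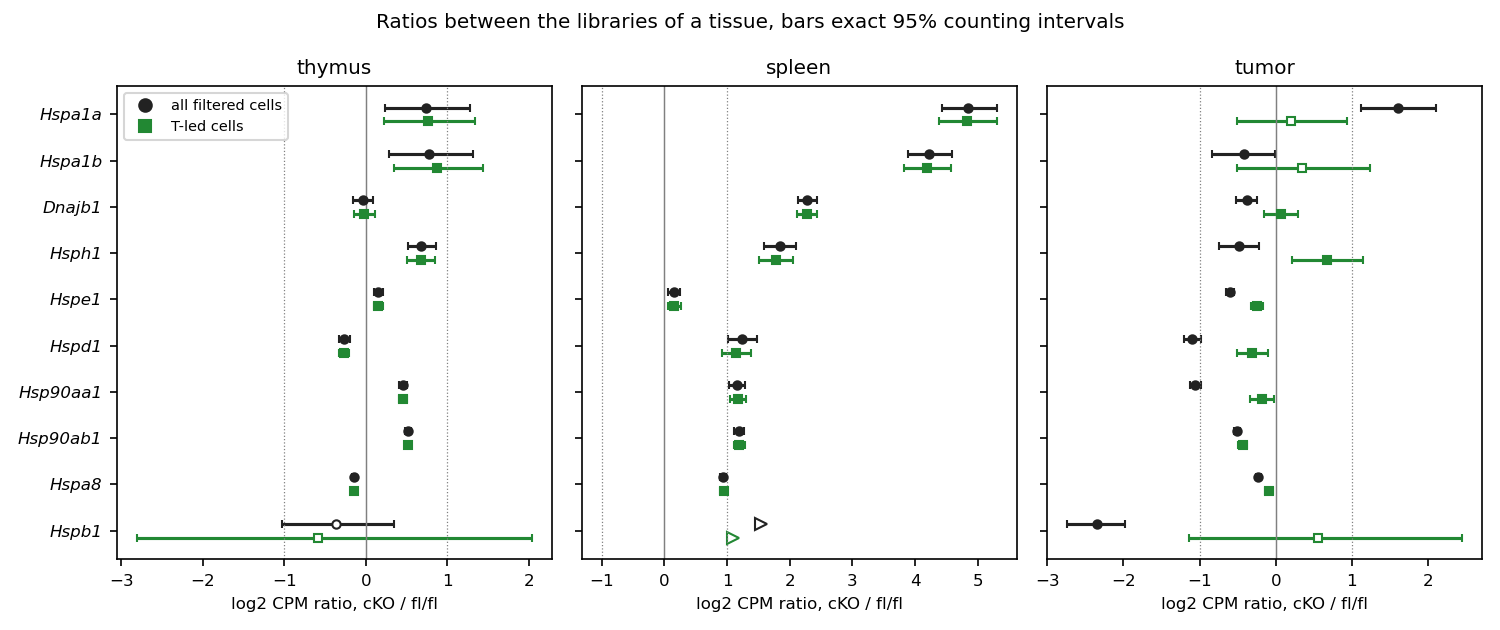
Log2 CPM ratio, cKO over fl/fl, of each chaperone gene per tissue, over all filtered cells (black circles) and cells led by T cell markers (green squares), with exact 95% counting intervals; open symbols have fewer than 100 UMIs in the pair, arrowheads are ratios of Hspb1 with 3 counts in place of 0 and dotted lines mark 2-fold. In the spleen, the contrast that chose the genes, 7 of the 9 genes with at least 100 UMIs lie past 2-fold for all cells. Of all 7843 genes counted there, 5.07% were past it higher and 0.676% lower. The arrowhead of Hspb1 for all spleen cells lies at 1.54. In the tumors none of these genes lies past 2-fold among cells led by T cell markers, beside 3.97% higher and 1.83% lower of 5016 genes.

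Cells were also compared by how many of these genes were counted in them. Of the 10 genes, the median thinned cell had a UMI of 4 in the spleen cKO library, 2 in the spleen fl/fl library, 3 in both thymus libraries and 2 in both tumor libraries, and 5 or more were seen in 37.3% of spleen cKO and 1.29% of spleen fl/fl cells. Within the spleen cKO library, cells with an Hspa1a or Hspa1b UMI held more Dnajb1 than cells without (1034 against 692 CPM, log2 ratio 0.58, 0.49 to 0.67). Smaller log2 ratios held for Hsph1 (0.41), Hsp90aa1 (0.34), Hspd1 (0.23), Hsp90ab1 (0.19) and Hspa8 (0.17), while that of Hspe1 was -0.08 (-0.19 to 0.04). For the 2330 thinned cells without a UMI of the pair, set beside all thinned cells of the spleen fl/fl library as a description only, Dnajb1 was at 692 against 177 CPM, with log2 ratios of 1.67 for Hsph1, 1.39 for Hspd1, 1.11 for Hsp90ab1, 0.97 for Hsp90aa1, 0.86 for Hspa8 and 0.21 for Hspe1.

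Thymic cells were compared by their stage within each library, a contrast that the choice of genes did not use. Cells with a UMI of Dntt, Rag1, Rag2 or Ptcra, genes of T cell receptor rearrangement and the pre-T cell receptor, made up 73.2% of the fl/fl and 58.6% of the cKO library. Of these, 192 of 781 and 540 of 1543 cells had exactly 1 such UMI. Hspd1 was at 449 CPM in these immature cells and 220 in the others of the fl/fl library, and at 403 and 189 in the cKO library. That is a log2 ratio of 1.03 (0.84 to 1.22) in one and 1.09 (0.99 to 1.19) in the other library.

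The Hsp90 genes and Hspa8 were higher in the immature cells of both libraries too. Log2 ratios, fl/fl then cKO, were 0.57 and 0.68 for Hsp90aa1, 0.50 and 0.61 for Hsp90ab1, 0.39 and 0.47 for Hspa8, and 0.30 and 0.21 for Hspe1. Others did not follow, with -0.27 and -0.13 for Dnajb1 and 0.28 and -0.12 for Hsph1, all with intervals that hold 0. Immature cells were deeper, with medians of 5145 against 3448 UMIs in the fl/fl library and 6070 against 4750 in the cKO library. The inducible pair went the other way in the fl/fl library, with 7.23 against 34.5 CPM, but in the cKO library its 19.4 and 23.0 CPM were not separable (log2 ratio -0.25, -0.56 to 0.07). Hspb1 was counted in few cells: 4 led by stroma markers held 24 of 27 UMIs in the fl/fl library, and 5 held 40 of 63 in the cKO library, where the highest single cell, with 17 UMIs, was led by no list.

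Cells in cycle (at least 0.2% of UMIs from 10 mitotic genes) made up 30.9% of the thymus fl/fl and 12.0% of the thymus cKO library. Against the other cells of their library, their log2 ratio of Hsp90aa1 was 0.28 and 0.62, and that of Hspd1 0.17 and 0.65. The inducible pair went the other way in both libraries, at -1.39 (-2.31 to -0.56) and -0.41 (-0.83 to -0.01). Dnajb1 was at -0.15 and 0.03 and Hsph1 at -0.13 and 0.38, of which only the last had an interval without 0. The makeup of the libraries thus differed along with their chaperone levels. All 4 immature thymocyte genes were detected in both, at a summed 544 CPM in the fl/fl and 426 in the cKO library (Dntt the most abundant), as were all 10 mitotic genes, at 1716 and 949 CPM (Top2a). All 5 stroma genes were at a summed 68.9 and 21.8 CPM (Dcn), and all 6 cytotoxic T cell genes at 1092 (Gzma) and 1403 CPM (Ccl5). Of 5 erythroid genes, 2 were detected in the fl/fl library at 0.313 CPM and all 5 in the cKO library at 10.3 CPM. Their part in the differences between the thymus libraries was not tested.

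The spleen libraries differed in other markers as well. Of 5 granulocyte genes, 1 was detected in the fl/fl library at 1.80 CPM (Prtn3) and 3 in the cKO library at 68.5 CPM (Mpo the most abundant, S100a8 and S100a9 at 0). Igkc was at 82.4 CPM over all cells of the fl/fl and 1517 CPM over those of the cKO library, where the 33 B-led cells held 9254 of 13539 UMIs, and 1 cell held 4060. All 6 cytotoxic T cell genes were at a summed 5246 CPM in the fl/fl and 9972 CPM in the cKO library, with Ccl5 the most abundant in both. Over the 1249 and 4597 cells led by T cell markers alone, the log2 ratio of the pair was 4.48, and the same 7 genes were past 2-fold, beside 5.14% higher and 0.688% lower of 7561 genes. The part of other cell types in the difference was not tested.

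The tumor libraries held melanoma and myeloid cells besides T cells. Marker lists sorted the fl/fl cells into 289 led by T cell, 142 by melanoma and 22 by myeloid markers, and the cKO cells into 470, 58 and 28. All 7 melanoma genes were detected in both, at a summed 9126 CPM in the fl/fl (Dct the most abundant) and 5033 CPM in the cKO library (Pmel), and all 8 myeloid genes at 330 and 625 CPM (Lyz2). Of 5 stroma genes, 5 were detected in the fl/fl library at 167 CPM and 4 in the cKO library at 1.39 CPM (Col1a2 in both, Rarres2 at 0 in the cKO library). The 9 T cell genes were at 2208 and 4470 CPM (Trbc2).

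Hsp90aa1, the chaperonin genes and Hspb1 were higher in melanoma-led than in T-led cells of both libraries. Hsp90aa1 was at 872 against 163 CPM in the fl/fl and 555 against 144 CPM in the cKO library. Hspd1 was at 347 against 97.7 CPM and at 199 against 79.0 CPM. Hspe1 was at 1363 against 609 CPM and at 1122 against 512 CPM. Hspb1 was at 76.0 against 1.30 CPM and at 25.4 against 1.90 CPM, with 1 melanoma-led cell holding 111 of the 417 UMIs of the fl/fl library. Dnajb1 and Hspa8 were higher too, with log2 ratios of 0.98 and 0.58 and of 0.36 and 0.23, fl/fl then cKO. Hsp90ab1 hardly differed, at 1206 against 1142 CPM and 823 against 846 CPM. Hsph1 was higher in the fl/fl library alone (1.66 and 0.03). The summed inducible pair went opposite ways (0.64 and -0.89), and single T-led cells held much of it, as given below. By copy, a split that is uncertain, Hspa1a was lower in melanoma-led cells of both libraries (-2.26 and -1.45). Hspa1b was at 1.82 and -0.38, with 1 melanoma-led cell holding 25 of its 92 UMIs in those fl/fl cells. Melanoma-led cells were the deeper ones, with medians of 31889 against 11042 UMIs in the fl/fl and 35962.5 against 9111 UMIs in the cKO library.

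Among T-led cells alone, 0 of the 7 chaperone genes counted were 2-fold apart between the tumor libraries, beside 3.97% higher and 1.83% lower of 5016 genes. Their median was -0.18, against 0.08 for all genes. The log2 ratio of Hspd1 was -0.31 (-0.51 to -0.10) in these cells, that of Hsp90aa1 -0.18 (-0.34 to -0.03) and that of Hsp90ab1 -0.43 (-0.49 to -0.37). Hsph1 turned to 0.67 (0.21 to 1.15), and Dnajb1 was at 0.07 (-0.16 to 0.29). For the pair it was 0.26 (-0.28 to 0.82), from 47 and 77 UMIs, of which single cells held 23 and 32.

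Myeloid-led cells had the highest level of the inducible pair in both tumor libraries, 149 against 12.2 CPM in T-led cells of the fl/fl library and 368 against 14.6 CPM in the cKO library. It was counted in few cells, 9 of 22 and 5 of 28. In the cKO library 1 myeloid-led cell with 74582 UMIs held 85 of the 209 UMIs of the pair over all cells. Without the single cell of each library richest in the RNA concerned, a step chosen after the data were seen, the tumor levels were 16.4 (fl/fl) and 15.8 CPM (cKO), and the log2 ratio of the pair was -0.05 (-0.41 to 0.30) in place of 0.48. That of Hspa1a was 1.43 (0.80 to 2.09) in place of 1.60, and that of Hspa1b -0.68 in place of -0.42. In the thymus and the spleen the same step gave 0.87 and 4.57 for the pair.

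**Figure D4:**
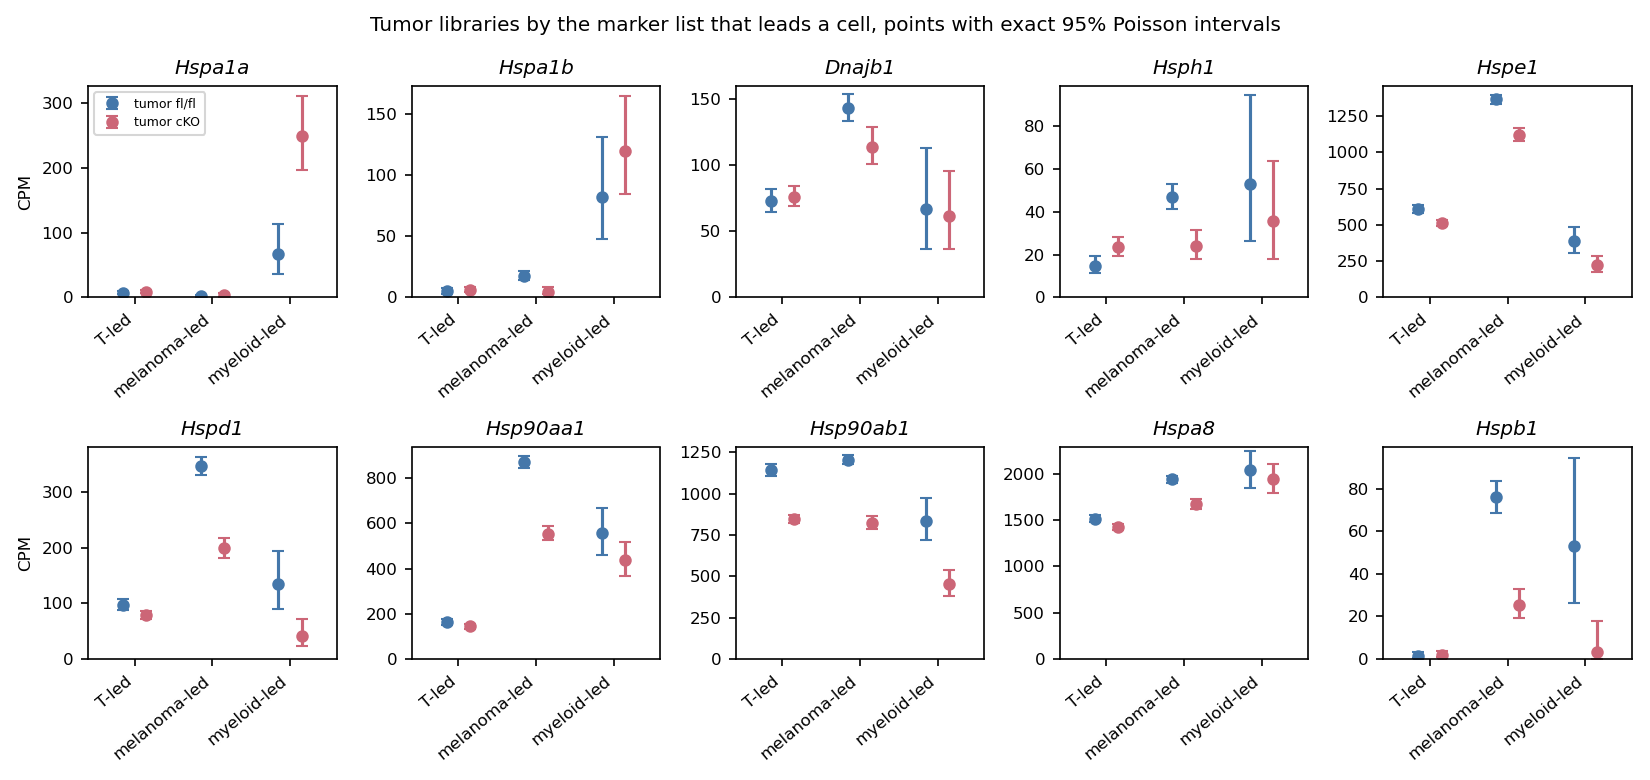
Level of each chaperone gene (CPM, linear axis from 0, each panel on its own scale) in tumor cells led by T cell, melanoma or myeloid markers, fl/fl in blue and cKO in red, with exact 95% Poisson intervals. Hsp90aa1, Hspd1, Hspe1, Hspb1, Dnajb1 and Hspa8 were higher in melanoma-led than T-led cells of both libraries; 1 cell holds 85 of the 114 Hspa1a and Hspa1b UMIs of the myeloid-led cKO cells.

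Other genes of protein folding were read from 6 lists, and genes of the immediate early response from another. In the spleen, heat shock factors and other inducible genes had 5 of 10 counted past 2-fold higher, Hsp90 co-chaperones 5 of 12, immediate early genes 8 of 13 and the cytosolic chaperonin TRiC 1 of 8. Hsp70 co-chaperones had 0 of 10, mitochondrial chaperones 0 of 8, and genes of the endoplasmic reticulum and its unfolded protein response 0 of 14. None was past it lower. These counts share the contrast that chose the family, beside the 5.07% of all genes given above.

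The leading genes of these lists in the spleen were Bag3, a co-chaperone that links Hsp70 to autophagy, with a log2 ratio of 1.96, Ahsa1, which speeds up the Hsp90 ATPase, with 1.56, and Zfp36, which speeds the decay of cytokine mRNAs, with 1.70. The highest of the others were Cct7 (1.04), Pdia6 (0.94), Bag5 (0.93) and Dnaja3 (0.87). At the low end stood Cct6a (-0.63), Dnajb11 (-0.37), Bag6 (-0.27), Nudc (-0.18), Ier5 (-0.02), Hscb (0.05) and Hsf1 (0.11). Hsf1, which encodes heat shock factor 1, was at 30.6 and 33.1 CPM in the spleen, 25.2 and 23.4 in the thymus and 10.4 and 10.2 in the tumors. By cell, the immediate early genes summed to 5964 CPM in spleen cKO cells with a UMI of the inducible pair, 4679 CPM in those without and 2690 CPM in the fl/fl library. Their log2 ratio, with over without, was 0.35, beside 0.16 for the endoplasmic reticulum and 0.13 for the inducible genes. For Hsp70 co-chaperones, Hsp90 co-chaperones, TRiC and mitochondrial chaperones it was -0.03, -0.04, -0.001 and 0.02, with intervals that hold 0.

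In the thymus 1 of 78 genes counted from these lists was past 2-fold (0 higher, 1 lower), beside 3.63% higher and 4.06% lower of all genes, and in T-led cells 3 were (2 higher, 1 lower), beside 3.75% and 4.05%. The 1 over all cells was Hsbp1, which encodes a binding protein of heat shock factor 1, with a log2 ratio of -1.15. The highest and lowest of the other lists were Dnajb6 (0.22) and Bag2 (-0.79), Fkbp5 (0.37) and Ppid (-0.90), Cct6a (-0.03) and Cct5 (-0.70), Hscb (0.01) and Grpel1 (-0.75), Dnajb9 (0.56) and Pdia6 (-0.88), and Jund (0.95) and Egr1 (-0.81). Over T-led cells Egr1 turned to 0.39 (0.09 to 0.70). In every list but the immediate early genes (median 0.05), the median was below the -0.07 of all genes, from -0.11 for the inducible genes to -0.47 for the mitochondrial chaperones. The median of the 9 chaperone genes counted, 0.46, was above that of every one of these lists, though 3 of the 9 were below 0.

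In the tumors 7 of 80 genes counted from these lists were past 2-fold, all lower in the cKO library. That is 8.75%, near the 7.69% lower of all genes, and so no result about the lists. The 7 were 2 inducible genes, 1 Hsp70 co-chaperone, 1 mitochondrial chaperone and 3 immediate early genes. The lowest were Serpinh1 (-1.47), which encodes the collagen chaperone, Fos (-1.26), Bag2 (-1.11) and Dnaja3 (-1.06), with Fkbp4 (-0.88), Canx (-0.70) and Cct7 (-0.67) lowest in the other lists. The highest were Fkbp5 (0.87), Btg2 (0.38), Hscb (0.33), Dnajb6 (0.32), Ubb (0.29), Sdf2l1 (0.26) and Cct4 (-0.00). Among T-led cells, where Serpinh1 had too few UMIs to be counted, the lowest was Fos, at -1.35, and the highest Fkbp5, a co-chaperone of steroid receptors, at 1.85.

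The 5 genes whose levels over the 6 libraries were most like those of Hspa1a, by Pearson's r on log2 of CPM plus 1 among 12932 genes, were Zfp791 (r = 0.990, Spearman's rho 0.94), Jchain (0.988, rho 1), Oas3 (0.983, rho 0.94), Rgs3 (0.982, rho 1) and Atp2b2 (0.979, rho 0.77). Hspa1b came at rank 13 (r = 0.967, rho 0.60) and Dnajb1 at rank 23 (0.950, rho 0.43). Without the spleen cKO library, r over the other 5 was 0.71 to 0.93 for the 5 genes, 0.63 for Hspa1b and 0.37 for Dnajb1. Without it and the tumor fl/fl library, the 2 farthest from the median, r over the other 4 was 0.78 to 0.93 for the 5 genes, 0.85 for Hspa1b and 0.44 for Dnajb1. Jchain encodes the joining chain of secreted antibodies and went from 5.40 CPM in the spleen fl/fl to 109 CPM in the spleen cKO library.

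Spleen cKO cells with a UMI of the pair were also compared with those without over all genes. Genes needed at least 50 UMIs in the cells with a UMI of the pair, and 5524 passed. This filter looked at those cells alone and so favours genes high in them, and nothing is read from the ranking. The 5 highest ratios belonged to 8430436N08Rik, Grm5, Oplah (log2 ratio 1.45), App (1.40) and Snx29. The first had 61 UMIs in 2 cells, and 1 cell held 34 of 66 UMIs of Grm5 and 1 cell 53 of 138 UMIs of Snx29. The first 2 and the last of these thus rest on few cells. Among the chaperone genes with more than 100 UMIs in this comparison, Dnajb1 with 0.58 was the highest.

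Upstream sequences of the chaperone genes were read from the RefSeq promoter table (GRCm38.p6), which holds 7 of the 10. Hsp90aa1, Hsp90ab1 and Hspa8 have no entry. The heat shock element is built of GAA units in alternating direction, so the letters GAANNTTC and TTCNNGAA were searched in the 250 bases before the start. Each is its own reverse complement, so both strands are covered, and matches can overlap. Either form is found in 12.8% of 32851 promoter windows, GAANNTTC in 6.69% and TTCNNGAA in 7.17%. Of the 7 genes, 6 have a match in at least 1 window, and Dnajb1 has none. Counted by window, as the 12.8% is, 7 of their 10 windows have a match. These windows are not independent. Those of Hspa1a and Hspa1b are nearly the same, the 2 windows of Hsph1 overlap, and Hspd1 and Hspe1 share a stretch. The windows of Hspa1a and Hspa1b are shown whole because 247 of their 250 bases are the same (98.8%), the single match included. They lie on the minus strand at chr17:34972157-34972406 and chr17:34959239-34959488, and capitals mark the match.
Hspa1a: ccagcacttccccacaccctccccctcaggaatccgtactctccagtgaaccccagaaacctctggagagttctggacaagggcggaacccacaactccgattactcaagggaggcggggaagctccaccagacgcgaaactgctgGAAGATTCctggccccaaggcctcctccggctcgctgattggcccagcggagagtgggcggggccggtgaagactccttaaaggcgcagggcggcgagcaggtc
Hspa1b: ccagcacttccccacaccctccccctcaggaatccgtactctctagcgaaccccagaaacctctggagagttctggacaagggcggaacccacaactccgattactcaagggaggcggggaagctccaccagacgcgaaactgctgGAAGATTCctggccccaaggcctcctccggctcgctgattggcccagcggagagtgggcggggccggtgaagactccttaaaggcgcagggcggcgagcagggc

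Hspd1 and Hspe1 are read in opposite directions from a shared region, with RefSeq starts 216 bases apart for 1 of the 2 starts of Hspd1. Between them lies a run of 4 alternating units, with 3 overlapping matches, that falls in the windows of both genes. At least 3 adjoining units occur in 0.466% of all windows. The stretch is shown because 1 sequence serves both genes, on the plus strand at chr1:55088053-55088082, with the run in capitals. A match describes letters in a window and is not a site of binding.
Hspe1: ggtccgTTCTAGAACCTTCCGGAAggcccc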

How the data were processed

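Single-cell RNA of 6 mouse libraries was read from the UMI counts per gene and barcode that the authors deposited, made with the PIPseq pipeline v3.2 against GRCm39; the submitters' processing notes name Seurat 4.3.0 for their own later steps. The counts are raw, without normalization. A barcode was kept with 500 or more genes, 1000 or more UMIs and a share of 20% or less from 13 mitochondrial genes. No caller of doublets was run and no cell was removed as one. Levels are UMIs summed over the cells of a library, as CPM, with Poisson intervals (exact). Ratios have exact conditional binomial intervals and shares Clopper-Pearson intervals, at 95%. A gene needed 100 UMIs in a pair of libraries to be counted, and a level of 0 was set to 3 counts for a ratio. Thinning to 1000 UMIs per cell used seed 1. A cell was led by a lineage with at least 3 UMIs of its marker list and 2 times those of every other. The members and lists were chosen with earlier results of these data known. Named were the 10 members, Pdcd1, Hsf1, the highest and lowest gene of each list per tissue, the 5 genes most like Hspa1a and the 5 with the highest ratio in cells with a UMI of the pair; Gm and snoRNA genes are named as overlaps, and Igkc and genes past 2-fold in T-led cells after their values were seen. Some results that fall under these rules are not reported here. Gene positions and overlaps are from GENCODE vM39. Alternatives tried were all barcodes, a stricter cell filter, T-led cells, cells with a CD8 UMI, other totals for scaling, other thinning, a 1.5-fold size, 20 UMIs per gene, leaving out the 1% of cells richest in these genes, and leaving out the richest cell. Python 3.11.15, numpy 2.4.6, scipy 1.17.1, pandas 2.3.3, matplotlib 3.10.9 and Biopython 1.88 were used.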

Additional observations from a re-analysis of the deposited data

Results flagged for a closer look

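Hspd1 and Hsp90aa1 moved in opposite directions in 2 tissues under the same contrast of libraries. The log2 CPM ratio of Hspd1, cKO over fl/fl, was 1.24 in the spleen and -1.09 in the tumors, and that of Hsp90aa1 was 1.16 in the spleen and -1.05 in the tumors. With 1 library per group, the difference between the tissues was not tested. The spleen values come from the contrast by which the genes were chosen, and in T-led tumor cells the tumor values were -0.31 and -0.18. Over all filtered cells Hspa1b, Dnajb1, Hsph1, Hspe1, Hsp90ab1, Hspa8 and Hspb1 were also higher in the spleen cKO and lower in the tumor cKO library. No share of all genes that did so was taken, and the median log2 ratio of all genes was 0.17 in the spleen and -0.22 in the tumors. Over T-led tumor cells Hspe1 (-0.25), Hsp90ab1 (-0.43) and Hspa8 (-0.09) were again lower in the cKO library. Dnajb1 (0.07) and Hsph1 (0.67) were not, and Hspa1b and Hspb1 had fewer than 100 UMIs there. The spleen ratio of Hspe1 changed sign when scaled by the median of ratios.

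A signal was also present in barcodes that the cell filter left out. In the spleen cKO library 35 such barcodes held Hspa1a and Hspa1b at 640 CPM (26 UMIs, 418 to 938). In the spleen fl/fl library the 5451 barcodes below the filter held 47.4 CPM (40.6 to 54.9), against 52.2 CPM in its filtered cells.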

How the results depend on the processing

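No analysis paired by mouse was possible because each mouse or pool has 1 genotype, and none paired by tissue was run. Depth limits the rarer genes, most of all Hspb1 outside the tumors. Scaling without mitochondrial, ribosomal and Malat1 counts moved the median log2 ratio of all genes from -0.07 to 0.11 in the thymus, from 0.17 to 0.03 in the spleen, and left it at -0.22 in the tumors. With that scaling the thymus ratios of Dnajb1 and Hspa8 turned to 0.15 and 0.0400. With the median of ratios, thymus Dnajb1 turned to 0.0378 and spleen Hspe1 to -0.0240, and 2 genes were 2-fold apart in the tumors in place of 4, and 6 in the spleen in place of 7 (Hsp90aa1 at 0.98). The stricter cell filter also gave 6 in the spleen (Hspd1 at 0.88), and counting genes with 20 UMIs gave 8. Cells with a CD8 UMI, a set not limited to T-led cells in the tumors, gave 3 there (Hsp90aa1 at -0.97). No share of all genes was taken under these alternatives, so nothing is read from the counts. In T-led tumor cells 0 genes were 2-fold apart, and Dnajb1 and Hsph1 turned to 0.0659 and 0.67. Leaving out the richest cell, a choice made after seeing the data, turned the tumor ratio of Hspa1a plus Hspa1b to -0.0548. At 1.5-fold, 3 genes were counted in the thymus in place of 0, again without a share of all genes at that size. The cause was not tested for any of these.

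Shares of cells follow the depth by construction. Not thinned, they were 4.50% and 8.12% for thymus, 6.50% and 64.1% for spleen and 15.6% and 6.42% for tumors (fl/fl, then cKO). Thinned to 500 UMIs, they were 0.750% and 1.02% for thymus, 2.57% and 36.0% for spleen and 1.10% and 0.357% for tumors, where the order turned from that at 1000 UMIs. Of the ratios of single genes under all alternatives, 53 of 72 stayed within the interval of the reported value in the thymus, 58 of 72 in the spleen and 60 of 77 in the tumors, while 3, 1 and 2 changed sign.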

Other observations

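Immediate early genes, which answer to new signals within minutes, lay partly in few thymic cells of the fl/fl library. The 13 genes summed to 5760 UMIs over all of its 1067 cells and to 4588 UMIs over the 1061 led by T cell markers, so 6 cells held the rest. In the cKO library the sums were 20244 UMIs over 2635 cells and 19101 UMIs over 2625. The median log2 ratio of the list, cKO over fl/fl, was 0.05 over all cells and 0.40 over T-led cells, with 2 of 13 genes past 2-fold higher in the latter, beside 3.75% of all genes counted there.

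In T-led tumor cells the same list leaned lower in the cKO library, with a median of -0.60 over 11 genes counted and 2 past 2-fold (Fos at -1.35 and Junb at -1.31). Of the genes of the endoplasmic reticulum, 2 of 14 were past 2-fold higher there, Ddit3 (1.56) and Herpud1 (1.44), both of the unfolded protein response, with a list median of 0.02. Of all genes counted in these cells, 3.97% were past 2-fold higher and 1.83% lower. These genes were singled out after their values were seen.

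Erythroid RNA differed between the spleen libraries too, with 3 of 5 genes detected at a summed 1.35 CPM in the fl/fl library (Hbb-bt and Hba-a1 at 0) and all 5 at 29.7 CPM in the cKO library, Hbb-bs the most abundant.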
